A study of Mus musculus with 5 samples.

Results

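The growth hormone, STAT5 and Bcl6 axis of the liver was followed through 10 genes, all of which were found among the 19938 genes measured: Ghr, Jak2, Stat5a, Stat5b, Socs2, Cish, Bcl6, Cux2, Igfals and Egfr. A gene was taken where a probe set of the array carried exactly its symbol, and where a gene had several, the brightest by its mean on the 5 arrays stood for it. The arrays held RNA from livers of male mice about 10 months old on regular food. The 2 control samples were normal liver of Hdac3FL/+AlbCre+ mice, and the 3 others were liver tumours of Hdac3FL/-AlbCre+ mice. All mice thus carried a floxed Hdac3 allele and AlbCre, in which the albumin promoter directs Cre recombinase to hepatocytes. Control hepatocytes keep the wild-type allele alone. Cells that do not activate the albumin promoter keep the floxed allele in both groups. Its partner in them is wild type in the controls and null in the tumour mice, so their Hdac3 copy number also differed. Every sample without hepatocyte Hdac3 was also tumour tissue, so genotype and tumour cannot be told apart. The labels call the arrays biological replicates and do not say whether the tumours came from separate mice.

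Growth hormone binds its receptor, the product of Ghr, on hepatocytes and activates the kinase Jak2, which phosphorylates the transcription factors Stat5a and Stat5b. These enter the nucleus and induce the blood-borne growth factor gene Igf1, its carrier Igfals and the feedback inhibitors Socs2 and Cish. In male mice the hormone comes in pulses, and pulsed Stat5b activity maintains a male pattern of liver genes. Bcl6 is a repressor that is higher in male liver, competes with Stat5 for the same DNA sequence and works through corepressors that contain Hdac3. Cux2 is a factor higher in female liver that raises female-biased genes and holds down male-biased ones.

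The DNA sequence that Stat5 factors bind, TTCNNNGAA, was searched in RefSeq promoter windows of GRCm38.p6, each from 250 bases before to 50 bases after an annotated start. The motif reads the same on both strands. It was present in 8.30% of 32851 such windows and in at least 1 window of 9.55% of 27025 genes. Windows were found for 9 of the 10 genes, 16 windows in all, and 3 genes held the motif: Cish, Igfals and Bcl6. They are shown because they are a feedback gene, a target and the competing repressor. Capitals mark the motif, each line holds 30 bases from 5′ to 3′ on the gene's own strand, and the start site is counted as 1.
Cish, chr9:107296654-107296683, plus strand, sites at 1 to 9 and 12 to 20: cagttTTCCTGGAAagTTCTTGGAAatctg
Igfals, chr17:24878163-24878192, plus strand, site at −58 to −50 of the start at 24878231: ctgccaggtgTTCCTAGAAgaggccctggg
Igfals, chr17:24877598-24877627, plus strand, site at −236 to −228 of the start at 24877844: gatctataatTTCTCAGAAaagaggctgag
Bcl6, chr16:23981432-23981461, minus strand, site at −168 to −160 of the start at 23981283: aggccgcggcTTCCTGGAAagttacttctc
Bcl6, chr16:23981386-23981415, minus strand, site at −122 to −114 of that start: ggcaggagtgTTCTGTGAAatccttagagc
Bcl6, chr16:23981352-23981381, minus strand, site at −88 to −80 of that start: atcgactacgTTCCGGGAAtgagagggctg
Bcl6, chr16:23988951-23988980, minus strand, site at −118 to −110 of the start at 23988852: agcaaattagTTCTCAGAAttccagaggcc
A narrower form that Bcl6 also recognises, TTCCTNGAA on either strand, is contained in the first motif and was present in 1.59% of windows. It occurred in the same 3 genes, at 1 of the sites of Cish, at the site of Igfals nearer its start and at 1 site of Bcl6. A match describes the letters of the window, and binding was not measured.

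Of the 10 genes, 1 fell and 0 rose at a limma adjusted p under 0.05. Over all genes tested, 10.6% were called, 4.96% lower and 5.6% higher in the tumours, so the count of called axis genes lay near the background. The tumour values lay below both controls for 4 of the 10, Ghr, Igfals, Egfr and Cish, and above both for 1, Stat5a. Such a separation in either direction, 5 of 10 here, was found for 44.2% of all genes. By direction it was 23.1% of all genes on the lower side and 21.1% on the higher side. The median log2 change of the 10 genes was 0.21, beside −0.02 over all genes. Changes are tumour minus control on the deposited log2 scale, and with groups of 2 and 3 the smallest p that exact permutation allows is 0.1.

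**Figure D1:**
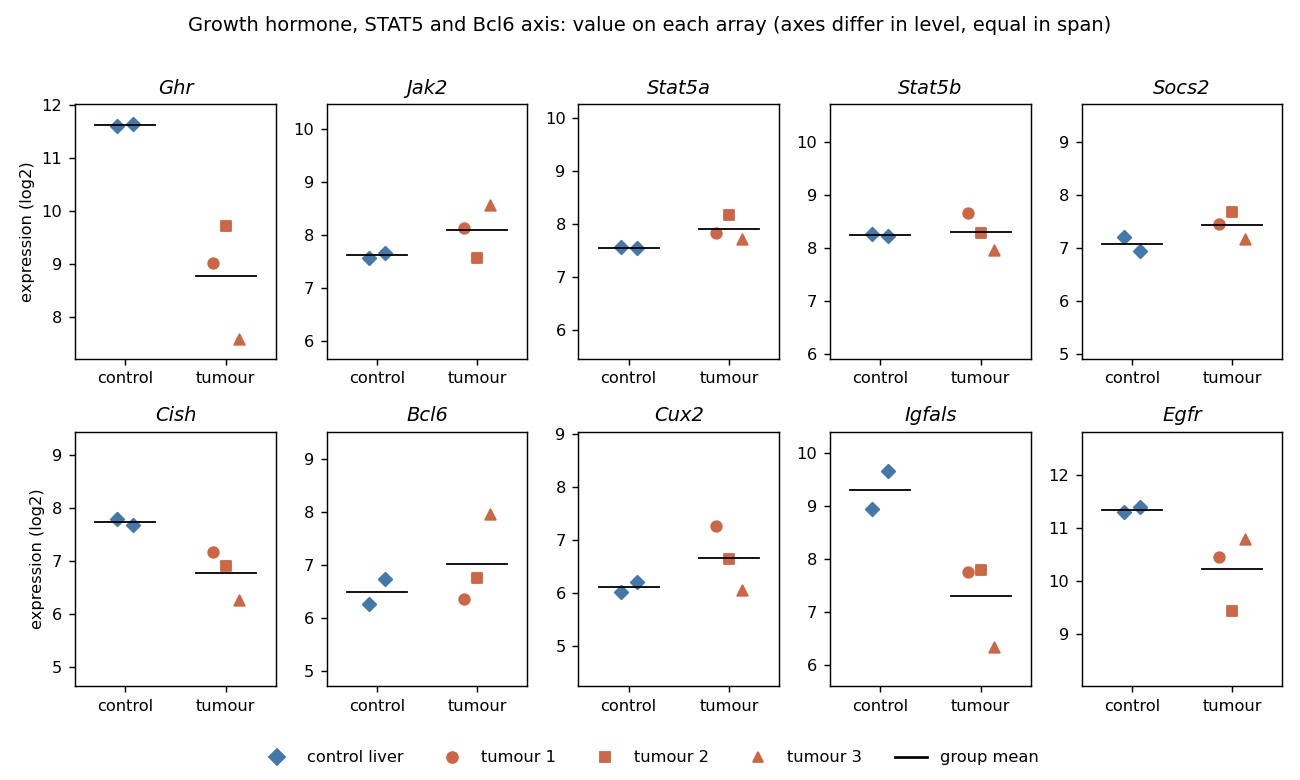
Deposited log2 expression of the 10 genes on each array, with control livers as diamonds, tumours 1, 2 and 3 as circle, square and triangle, and group means as lines. The panels differ in level but have the same span. All 3 tumours lie below both controls for Ghr, Cish, Igfals and Egfr, and the tumour groups of Bcl6, Cux2, Jak2, Stat5b and Socs2 overlap the controls.

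The receptor gene Ghr (chr15:3317755-3583352, GRCm38.p6) was the 1 called gene of the axis. It read 11.61 and 11.65 (log2) in the control livers, against 9.01 in tumour 1, 9.72 in tumour 2 and 7.58 in tumour 3. The controls lay close together, all tumours were far below them, and tumour 3 was the lowest. The mean change was −2.86 (SE 0.59, 95% interval of the fit −4.30 to −1.42, n = 2 controls and 3 tumours; limma adjusted p = 0.0359), a 7.26-fold lower value. By size of fall Ghr ranked 102 among all genes. The call was lost without tumour 1 (adjusted p = 0.0589) and without control 1 or control 2 (0.226 and 0.24), while the change stayed between −3.33 and −2.26 with any array left out. Transcript forms of Ghr that encode the full receptor or the soluble binding protein were not separated here.

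In bulk tissue, fewer cells of a type and less RNA per cell cannot be told apart. Of 10 measured hepatocyte markers, 9 were lower in the tumours, 2 fell (Serpina1c and Ttr), or 20% beside 4.96% of all genes, and the median was −0.22. Their summed level was 16.01 and 16.03 on the log2 scale in the controls and 15.60 to 15.85 in the tumours. Beside the −2.86 of Ghr, the 10 markers ranged from −0.94 for Serpina1c to 0.12 for Trf. These markers were bright, with control means from 11.11 for Hnf4a to 13.15 for Serpina1c, where array maxima lay between 13.70 and 13.98. Whether values so near the top understate a loss was not tested. Alb, the albumin gene, stood at −0.12 (limma adjusted p = 0.744). Of 15 macrophage markers 9 rose and 0 fell, 60% risen beside 5.6% of all genes, with a median of 2.10. Their summed level went from 10.45 and 10.90 to between 12.28 and 13.14. The list was split, with Clec4f (−0.80), Vsig4 (−0.20), Marco (0.23) and Cd5l (0.36) not called. Each of these was highest in tumour 1 and below both controls in tumour 3. Itgam (1.63) and Trem2 (0.44) were not called either. The part of the hepatocyte and macrophage markers in the change of Ghr and of the genes below was not tested.

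Downstream of the receptor, Jak2 and the Stat5 genes did not pass the test. Jak2 (chr19:29251803-29313095) had log2 values of 7.57 and 7.66 in the controls and 8.13, 7.57 and 8.56 in the tumours, a change of 0.47 (interval −0.23 to 1.17; limma adjusted p = 0.385). Tumour 2 lay at the control level and tumour 3 was the highest. Stat5a stood at 7.56 and 7.55 in the controls and at 7.83, 8.18 and 7.72 in the tumours, 0.35 on average (interval −0.06 to 0.77; limma adjusted p = 0.263). All tumours were above both controls, tumour 2 the most. Stat5b, the main form of male liver, had 8.27 and 8.24 in the controls and 8.66, 8.30 and 7.97 in the tumours. Its change was 0.06 (interval −0.47 to 0.58; limma adjusted p = 0.911), and its sign changed with the array medians aligned (−0.039) and without tumour 1 (−0.12). The intervals leave room for a change of the Stat5b mean of up to about 0.58 in size, and phosphorylation of the proteins was not measured.

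Stat5a and Stat5b lie next to each other on chromosome 11 (chr11:100859351-100885169 and chr11:100780731-100859004) and are close relatives in sequence. Whether their probe sets cross-hybridise was not tested. The within-array difference Stat5a minus Stat5b was −0.70 and −0.69 in the controls and −0.83, −0.12 and −0.25 in the tumours. Tumours 2 and 3 lay above the controls and tumour 1 below them. The mean difference between the groups was 0.30 (SD of the tumours 0.38; exact permutation p = 0.4, two-sided), smaller than the spread between tumours.

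The feedback genes Cish and Socs2 took different values. Cish (chr9:107296659-107302784), which blocks Stat5 docking at the receptor and carries the paired motif shown above, had log2 values of 7.80 and 7.67 in the controls and 7.17, 6.90 and 6.27 in the tumours. No tumour reached the control level and tumour 3 was again the lowest. The change of −0.96 (interval −1.62 to −0.29) did not pass over all genes (limma adjusted p = 0.0832). It passed without tumour 1 (0.0479) and without tumour 3 (0.0354), with changes of −1.15 and −0.70. Socs2 (chr10:95383903-95417321), part of a ligase that removes the receptor, had 7.20 and 6.94 in the controls and 7.46, 7.68 and 7.16 in the tumours. Tumour 3 fell between the controls, and the change was 0.36 (interval −0.10 to 0.82; limma adjusted p = 0.314). Socs2 was the only one of the 10 genes with a second probe set, a dimmer one, which read 5.31 and 5.74 in the controls and 5.51, 5.22 and 5.07 in the tumours, a difference of −0.26. Its probe sets thus differed in sign, and the mean of both gave 0.05. Whether both probe sets lie at the Socs2 locus given here was not checked.

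The target genes Igfals and Egfr were lower in every tumour without passing the test. Igfals (chr17:24877844-24882011) encodes the acid-labile subunit that keeps Igf1 in the circulation. It read 8.95 and 9.65 on the 2 control arrays and 7.76, 7.79 and 6.34 on the tumour arrays. The groups did not overlap, and tumour 3 was the lowest, as for Ghr and Cish. The change of −2.01 (SE 0.49, interval −3.20 to −0.81), or 4.02-fold, had a limma adjusted p of 0.0551. It was called with the dimmest 40% of genes left out (0.0458) and without tumour 3 (0.0139), where the change was −1.53. Egfr (chr11:16752203-16913907), the receptor for epidermal growth factor, whose level in mouse liver depends on growth hormone, had 11.29 and 11.39 in the controls and 10.44, 9.43 and 10.78 in the tumours. Here tumour 2 was the lowest and tumour 3 the nearest to the controls. The change was −1.12 (interval −2.07 to −0.17; limma adjusted p = 0.139), and it passed without tumour 3 (0.0437), at −1.40.

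**Figure D2:**
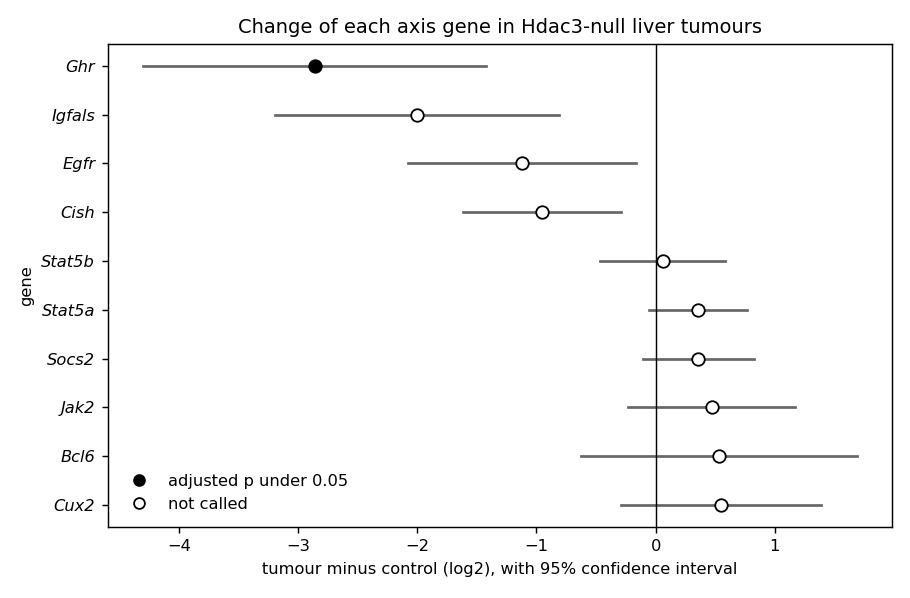
Mean tumour minus control difference on the log2 scale for each of the 10 genes, with limma's 95% confidence interval for single genes; a filled point marks an adjusted p under 0.05. Ghr is the 1 filled point, at −2.86. The intervals of Igfals, Egfr and Cish lie below 0, and those of the other genes include 0.

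The regulators of the sex pattern, Bcl6 and Cux2, did not pass the test. Bcl6 (chr16:23965050-23988866) had log2 values of 6.26 and 6.74 in the controls and 6.37, 6.76 and 7.97 in the tumours. Tumours 1 and 2 lay at about the control level and tumour 3 was far above it. The change was 0.53 (interval −0.63 to 1.69; limma adjusted p = 0.568), and 0.06 without tumour 3. Bcl6 is also expressed in lymphocytes and other immune cells. Of 11 measured lymphocyte markers, 10 were higher in the tumours and 1, Ptprc, which marks all white blood cells, was called. That was 9.09% risen beside 5.6% of all genes, and 9385 of all 19938 genes were higher. The summed level of the markers was 8.53 and 8.47 for the control livers, 9.53 and 9.55 for tumours 1 and 2, and 10.83 for tumour 3. Among the tumours, 9 of the 11 (81.8%) were highest in tumour 3, where 46.6% of all genes were highest. The B cell genes Ms4a1 and Cd79a and the follicular gene Cxcr5 were dim in both groups, with means below the arrays' lower quartile. Another B cell gene, Cd79b, was not dim and read 5.48 and 5.23 in the controls against 5.60, 5.87 and 5.91 in the tumours (0.44, limma adjusted p = 0.15). The part of these cells in the Bcl6 value of tumour 3 was not tested.

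Cux2 (chr5:121857962-122050415) had 6.01 and 6.21 in the controls and 7.27, 6.64 and 6.06 in the tumours. Tumours 1 and 2 were above both controls and tumour 3 lay between them. The change was 0.55 (interval −0.29 to 1.39; limma adjusted p = 0.40) with all arrays and 0.85 without tumour 3 (0.0703). The tumour with the highest Bcl6 was therefore the one with the lowest Cux2. The order of the 3 tumours was reversed between the genes, though Bcl6 differed less between tumours 1 and 2 than between the controls. A link between the genes was not tested.

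**Figure D3:**
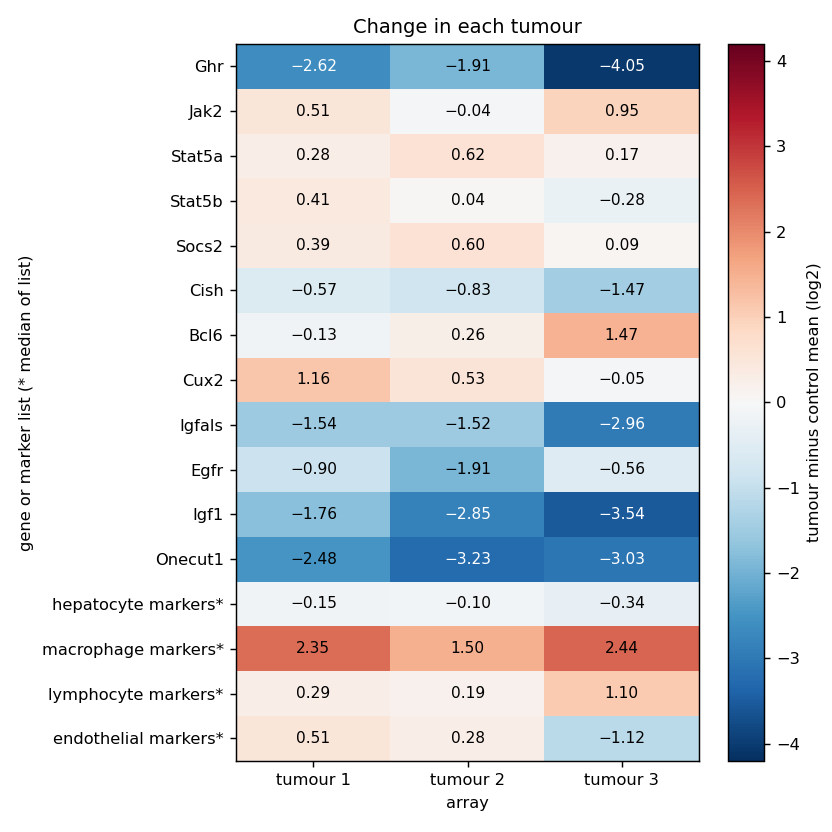
Difference between each tumour and the mean of both controls, on the log2 scale, for the 10 genes, for the targets Igf1 and Onecut1, and for the medians of 4 marker lists. Tumour 3 has the lowest values of Ghr (−4.05), Igfals (−2.96), Cish (−1.47) and Igf1 (−3.54) and the highest of Bcl6 (1.47) and of the lymphocyte median (1.10).

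Of the 10 genes, 7 had their lowest tumour value in tumour 3, where 28.4% of all genes had theirs. In tumour 3 all 8 endothelial markers were also the lowest of the tumours, with a median of −1.12 against the controls, and 6 of 10 hepatocyte markers were the lowest, with a median of −0.34. Tumour 3 thus differed from tumours 1 and 2 in several cell type markers, and their part in its values was not tested.

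Of 5 other measured targets of growth hormone 3 fell, 1 rose and 1, Fgf21, did not pass. Fgf21 lay above both controls in every tumour (2.68, limma adjusted p = 0.0598). With 3 targets lower and 2 higher, the median of −2.72 was the change of Igf1 itself. Over all genes 4.96% fell and 5.6% rose. Igf1 had log2 values of 10.88 and 10.86 in the controls and 9.11, 8.01 and 7.33 in the tumours, a change of −2.72 (SE 0.49; limma adjusted p = 0.0242). As with Ghr, the controls were nearly alike and tumour 3 was the lowest. Onecut1, a hepatocyte transcription factor induced by growth hormone, fell from 9.70 and 10.26 to 7.50, 6.75 and 6.95 (−2.91, adjusted p = 0.00422). Cyp8b1, the sterol hydroxylase that sets the kind of bile acid made, fell by 4.91 (adjusted p = 0.00413). Igfbp3, the binding protein that joins Igfals and Igf1 in a complex and is made mainly by non-hepatocyte liver cells, rose from 6.82 and 6.98 to 10.08, 9.89 and 9.48 (2.92, adjusted p = 0.00192). Of the 3 parts of that complex, Igf1 fell, Igfbp3 rose and Igfals missed the threshold. Igfbp3 kept its call with any array left out. Without control 1 or control 2, the calls of Igf1 (0.19 and 0.201), Onecut1 (0.0505 and 0.0744) and Cyp8b1 (0.0713 and 0.0793) were lost, as was that of Igf1 without tumour 2 (0.0713).

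Among 28 other measured genes of the signalling cascade 3 rose, 2 fell and 23 did not pass, with a median of 0.17. The share called, 17.9%, stood beside 10.6% of all genes. Sirpa, a membrane protein that Jak2 phosphorylates and that macrophages also express strongly, rose from 7.25 and 7.30 to 9.18, 9.14 and 10.17 (2.22, limma adjusted p = 0.0141). Ptpn1, a phosphatase that acts on Jak2, rose by 0.93 (0.0483), and Stat6, which serves interleukin signals, rose by 0.52 (0.041). Sh2b1, an adaptor that enhances Jak2, fell by 0.57 (0.0369). Irs1, an adaptor shared with the insulin receptor, fell by 0.56 (0.049) and was named after its value was seen. Each of these 5 calls was lost without either control, and those of Sh2b1, Stat6, Ptpn1 and Irs1 also without tumour 1 or tumour 2. With the array medians aligned, Stat6 (0.0747) and Ptpn1 (0.0543) were not called. A variance trend with robust settings ended the calls of Sh2b1 (0.0545), Stat6 (0.0629) and Irs1 (0.0685), and repeated quantile normalisation that of Ptpn1 (0.0513). Of the 15 macrophage markers 9 rose as well, with a median of 2.10 over the list, and their part in the rise of Sirpa was not tested.

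Of 14 corepressors and partners of Bcl6, 2 rose and 1 fell, 21.4% called beside 10.6% of all genes, with a median of 0.28. The called share counts Hdac3, whose fall was set by the design, so it cannot be weighed against that of all genes. The risen share was 14.3%, beside 5.6% of all genes. Those that rose were Tbl1x by 0.99 (limma adjusted p = 0.00912) and Tbl1xr1 by 0.91 (0.0181). Both encode subunits that hold Hdac3 in its complex. Hdac3 itself, the deleted gene, fell by 1.62 (0.00298), from 8.21 and 8.37 to between 6.57 and 6.78, and where its probes lie relative to the deleted part was not analysed here. Bcl6b, the close relative of Bcl6, stood at 0.49 (0.0896). The 3 calls were lost without control 1 or control 2.

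Of 26 measured genes that are higher in male than in female mouse liver, 14 fell, 0 rose and 12 did not pass. That is 53.8% called lower, beside 4.96% of all genes, and the median change was −2.76. The list was written with the largest falls of these arrays known, and it includes 7 of the 15 largest: Sult2a8, Serpina4-ps1, Slco1a1, Mup21, Mup3, Hsd3b5 and Elovl3. Of the other 19 genes 7 fell, with a median of −2.37. Slco1a1, an organic anion transporter, went from 10.02 and 10.05 to between 2.73 and 2.98, and Hsd3b5, a steroid dehydrogenase, from 10.14 and 10.21 to between 4.11 and 4.25. Their tumour means and those of Serpina4-ps1, Elovl3 and Sult2a8 were dim, below the tumour arrays' lower quartile of 4.31, and the size of these falls rests on that floor. With the tumour mean set to that quartile, Slco1a1 differed by 5.73 and Hsd3b5 by 5.86 in size. Mup21, of the urinary pheromone carriers, fell by 6.62 (limma adjusted p = 0.00035), though near-identical Mup genes can share its probes. Its tumour mean of 4.35 lay barely above that quartile, so the size of its fall rests on the floor as well. Without control 1 or control 2 the counts were 9 and 8 of 26, and 18 without tumour 3. Slco1a1, Hsd3b5, Serpina4-ps1 and Mup21 kept their calls with any array left out.

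Genes higher in female liver stood on both sides of 0. Of 25 measured, 1 rose, 1 fell and 23 did not pass, 8% called beside 10.6% of all genes, with a median of 0.17. The median was −0.03 with dim group means set to the arrays' lower quartile. Nipal1, a magnesium transporter, rose from 5.70 and 5.14 to 7.70, 7.02 and 7.04 (1.83, limma adjusted p = 0.0148). Hamp2, a hepcidin paralogue, fell from 10.06 and 9.28 to 6.92, 5.84 and 5.34 (−3.64, adjusted p = 0.011). Tox, a transcription factor, stood at −0.76 (0.068) and Cib3 at 1.08 (0.0915). Both calls were lost without control 1 or control 2, where 0 of the 25 genes were called. Adjacent members of the Cyp2b and Cyp3a families can share probes, and their values are uncertain.

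**Figure D4:**
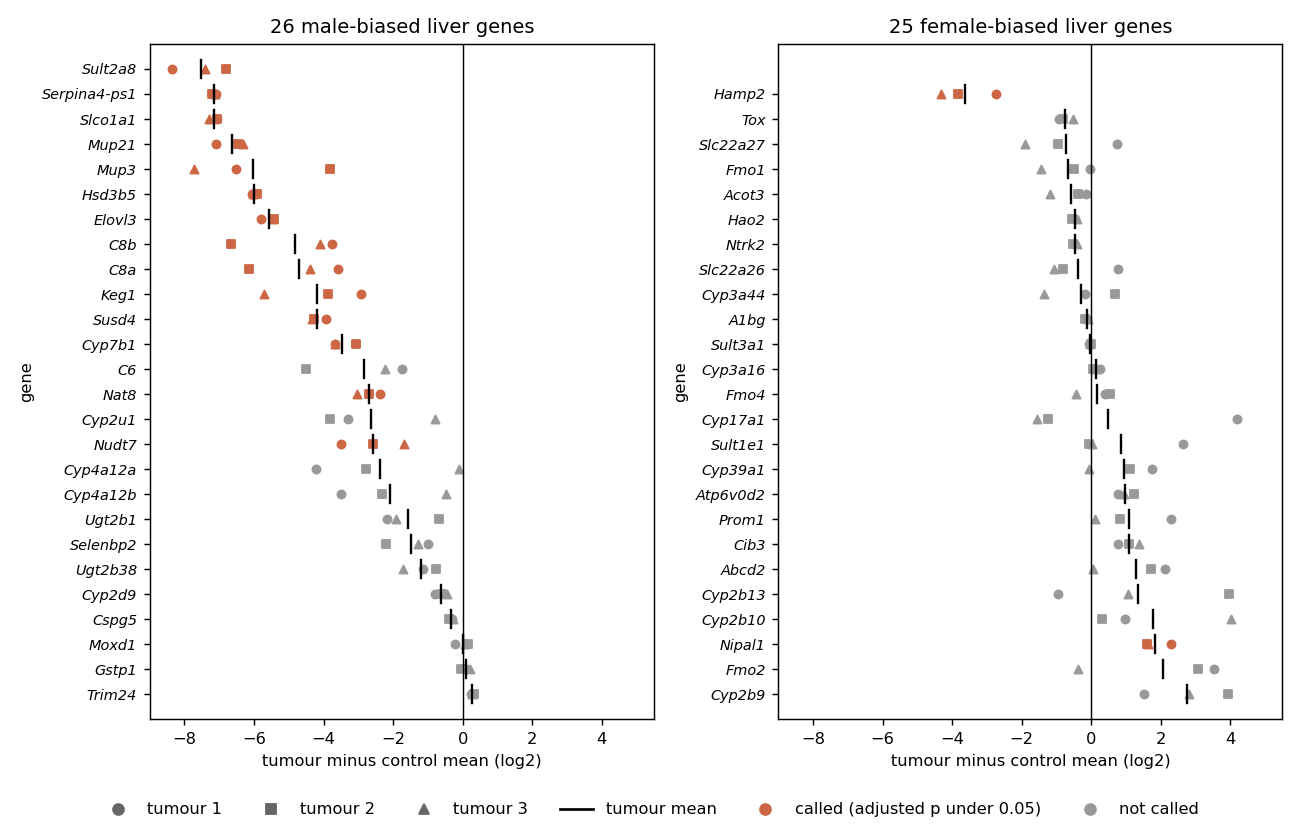
Difference between each tumour and the mean of both controls, on the log2 scale, for 26 male-biased and 25 female-biased liver genes, ordered by mean change; coloured symbols mark genes with a limma adjusted p under 0.05, and vertical ticks the tumour mean. Of the male-biased genes 23 have a mean below 0 and 14 are called. The female-biased genes lie on both sides of 0, 14 above and 11 below, and 2 are called.

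Lipid genes that growth hormone holds down in liver were split. Of 13 measured genes 5 rose, 3 fell and 5 did not pass, 61.5% called beside 10.6% of all genes, with a median of 0.07. The fatty acid carrier Fabp4 rose by 4.55 (limma adjusted p = 0.00123), lipoprotein lipase Lpl by 2.59 (0.00747), the lipid droplet genes Cidec by 3.07 (0.0155) and Plin2 by 1.34 (0.00997). The fatty acid receptor gene Cd36 rose by 1.89 (0.0363). Pparg, the nuclear receptor that induces several of these genes, fell by 0.81 (0.0361), as did Srebf1 by 1.05 (0.0275). Mogat1 also fell (0.0328), to a dim tumour mean of 3.97, and differed by 0.86 in size with that mean set to the lower quartile. Cd36, Pparg, Srebf1 and Mogat1 were named after their values were seen. Macrophages also express Fabp4, Lpl, Plin2 and Cd36. Of the 15 macrophage markers 9 rose, with a median change of 2.10 over the list, and the part of macrophages was not tested. Fabp4 was called with either control left out, and the other 7 lost their calls without control 2. Without control 1 the same 7 were lost, the lowest adjusted p being 0.0521, for Cd36. Without tumour 1 the calls of Cd36 (0.0592), Mogat1 (0.0672) and Pparg (0.0731) were lost, and without tumour 2 those of Cd36 (0.094) and Mogat1 (0.0754).

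Genes with the most similar pattern over the 5 arrays were sought for the 3 axis genes with the largest change, by root mean square distance between profiles centred on the control mean. For Ghr the nearest were Adtrp, Haao and Chpt1, at distances of 0.20, 0.24 and 0.29 log2 units and with changes of −2.85, −2.73 and −2.60. Each had its lowest value in tumour 3, as Ghr did. For Igfals they were Dpp4, Akr1c19 and Mgam, at 0.19 to 0.22, again lowest in tumour 3. For Egfr they were Zfp825, Mterf3 and Rhbg, at 0.10 to 0.19, lowest in tumour 2. With 5 arrays many genes share such a profile by group alone.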

How the data were processed

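RNA of 2 control livers and 3 tumours was measured on 1 array each. The deposited table holds the authors' log2 values, a single one for every probe set on every array. The submitters' processing notes list GCOS and RMA without versions. RMA summarises probes on a log scale and compresses differences near the floor. The sources used here name no genome build for the probe sets. Array medians lay between 5.66 and 5.77, and the number of arrays limits the precision.

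Of 28853 probe sets, 21789 had 1 symbol in the platform's probe table. The 1621 with several symbols and the 5443 with none were left out, and the brightest probe set stood for each of 19938 genes. Differences were fitted over all genes with limma 3.58.1 (lmFit and eBayes, R 4.3.3), without covariates, with 3 residual and 2.98 prior degrees of freedom, two-sided and adjusted by Benjamini-Hochberg. A group mean under the mean lower quartile of its arrays (4.34 for controls, 4.31 for tumours) was called dim. In simulated arrays, 200 of 19938 genes were changed per run and the noise was normal and independent between genes. Genes given a change of 0.5, 1 or 2 log2 units were recovered in 1.4%, 57.6% and 96.2% of cases. False calls made up 7.66%, beside the adjusted p threshold of 0.05. In the data 10.6% of genes were called, a larger share than was changed in the simulation, so these rates need not hold for the data.

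The axis genes and gene lists were chosen with earlier results of these data known. Lists are described by counts and medians. Named were the 10 axis genes, the 4 genes of smallest p in each list other than cell type markers, and the 3 nearest profiles of 3 axis genes; other names were chosen after values were seen. Python 3.11.15, pandas 2.3.3 and matplotlib 3.10.9 joined tables and drew figures. Alternatives were repeated quantile normalisation, a common median, removal of dim genes, other uses of probe sets, other variance models, array weights, a replicate block and leaving out each array.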

Additional observations from a re-analysis of the deposited data

How the results depend on the processing

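The count of called genes, 2106, became 3252 with array weights and lay between 108 and 2719 with 1 array left out, lowest without control 2 (108), then control 1 (129) and tumour 2 (1266). Risen genes made up 53% of calls, and 42.7% once array medians were aligned. The count of called axis genes, 1, became 2 with dim genes left out (Ghr and Igfals), 4 with array weights and 4 with the replicate block (Ghr, Cish, Igfals and Egfr each time). It ranged from 0 to 4 with 1 array left out. The block fit gives tumour 3 a level of its own, so its changes equal those without tumour 3. Same-numbered arrays did not deviate together (correlations of deviations 0.00388 and −0.0129), so the numbers were not taken as pairs. Male-biased calls ranged from 8 to 18 with 1 array left out, and female-biased calls from 0 to 4, with 6 under the replicate block. The Stat5a minus Stat5b change ranged from 0.16 to 0.51. The Stat5b change turned to −0.039 with aligned medians and lay between −0.12 (without tumour 1) and 0.23 with 1 array left out. Of 39 named genes, 27 of them called, 21 lost their call without control 1 and 21 without control 2. Where 1 control remained, its spread was taken to equal that of the tumours. No array detection calls were used, so dim values bound a change only loosely.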

Other observations

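Tumour 1, which had the highest Cux2 value, also held the highest tumour value of 13 of the 25 female-biased genes (52%), where it was the highest for 27.4% of all genes. Cyp17a1, a steroid hydroxylase, read 10.12 there against 4.70 and 4.38 in tumours 2 and 3 and 6.25 and 5.61 in the controls. Sult1e1, the estrogen sulfotransferase, read 5.39 against 2.68 and 2.78, with 2.71 and 2.80 in the controls, and Prom1 read 6.53 against 5.04 and 4.33. Not every gene of the list followed this order. Cyp2b10 was highest in tumour 3 (11.26) and Cyp2b13 in tumour 2 (8.37). In tumour 1, 9 of 9 stellate and 7 of 8 endothelial markers were also the highest of the 3 tumours. These genes were chosen after their values were seen, and single tumours allow no test.

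The male-biased Cyp4a12a and Cyp4a12b kept near-control values in tumour 3 alone. Cyp4a12a read 11.55 and 11.89 in the controls, 7.50 and 8.94 in tumours 1 and 2, and 11.61 in tumour 3, the tumour with the lowest Ghr. Cyp2u1 was also highest in tumour 3, with 8.03 against 5.52 and 5.00 in tumours 1 and 2. C6, C8a and C8b, which encode complement components, were instead lowest in tumour 2, at 5.17, 4.75 and 4.93. Male-biased genes thus did not follow 1 order among the tumours. Cyp4a12a and Cyp4a12b can share probes.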
